A study of Homo sapiens with 6 samples.

Results

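The genes described here make, move and break down catecholamines, the family of transmitters to which dopamine and noradrenaline belong. They were chosen by name: TH, DDC and DBH for synthesis, SLC6A2 and SLC6A3 for uptake across the cell membrane, SLC18A1 and SLC18A2 for packing into vesicles, and MAOA and MAOB for breakdown. Of these 9 genes 7 were read from a table of 26789 genes, each symbol occurring once, while TH and SLC6A3 were not analysed here. Expression was measured by RNA sequencing in the human neuroblastoma line SK-N-SH, labelled wild type. Cells grown for 24 h in standard medium then received plain medium (the 3 control samples) or dopamine (the 3 dopamine samples) for 6 h. The labels print the dose as 40 M, which appears to lack a prefix, so no concentration is given. The series' design text speaks of SH-SY5Y cells as treated, a subline of SK-N-SH, while the labels of all 6 samples say SK-N-SH. Nothing in the labels says that the replicates were separate cultures, and p-values therefore rest on a spread that may be purely technical.

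Catecholamines are built from tyrosine. Tyrosine hydroxylase, encoded by TH, makes L-DOPA, aromatic amino acid decarboxylase (DDC) turns it into dopamine, and dopamine beta-hydroxylase (DBH) turns dopamine into noradrenaline inside vesicles. The vesicular monoamine transporters VMAT1 (SLC18A1) and VMAT2 (SLC18A2) fill those vesicles, the noradrenaline transporter (SLC6A2) takes up both noradrenaline and dopamine from outside the cell, and the mitochondrial enzymes encoded by MAOA and MAOB oxidise the amines in the cytosol. Neuroblastoma arises from the sympathetic lineage, which normally makes noradrenaline.

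Of the 7 genes, 5 were expressed at a mean of at least 1 FPKM (a fragment count divided by gene length and library total): DBH, SLC6A2, DDC, MAOA and MAOB. SLC18A1 was low and SLC18A2 nearly absent. None of the 5 passed the test for a change with dopamine (limma, adjusted p threshold 0.05), where 0.102% of all tested genes did (0.0848% higher and 0.017% lower). MAOA had the largest fitted rise and DBH the largest fitted fall. Of the 26789 genes, 11791 were tested, and the p-values of the fit to the deposited values were adjusted over these. A setting that tests another set of genes was adjusted over its own set.

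The 6 libraries held 19394000 to 24232000 fragments, as recovered from the steps between low values, and their log2 values correlated at 0.957 to 0.994 with each other. The libraries also differed in how their values depended on the GC content of a gene. The slope against GC content, for each 10 points, ran from 0.0215 to 0.218 log2 units in control and from -0.255 to -0.0312 in dopamine, so that control and dopamine libraries did not overlap in it. Control replicate 3 and dopamine replicate 3 lay at the ends of the first principal component, which held 66.4% of the variance. Of 11 markers of adrenergic neuroblastoma cells, 10 had values, with a summed level of 328 to 371 FPKM in control and 336 to 376 FPKM in dopamine libraries, led by the transcription factor genes HAND2, PHOX2A and TBX2 at means of 130 FPKM, 76.1 FPKM and 53.4 FPKM. All 12 mesenchymal markers had values, with sums of 1697 to 1874 and 1621 to 1697 FPKM, led by VIM, COL1A1 and FN1 at 874 FPKM, 337 FPKM and 187 FPKM. In bulk RNA fewer cells of a type and less RNA per cell cannot be told apart. The 5 glial markers that had values summed to at most 1.93 FPKM. The summed level of 5 epithelial markers was 140 to 175 FPKM in control and 105 to 121 FPKM in dopamine libraries, nearly all of it from the keratin genes KRT18 and KRT8, while EPCAM lay at a mean of 0.152 FPKM and CDH1 at 0.0608 FPKM. The part of these marker levels in the results below was not tested.

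**Figure D1:**
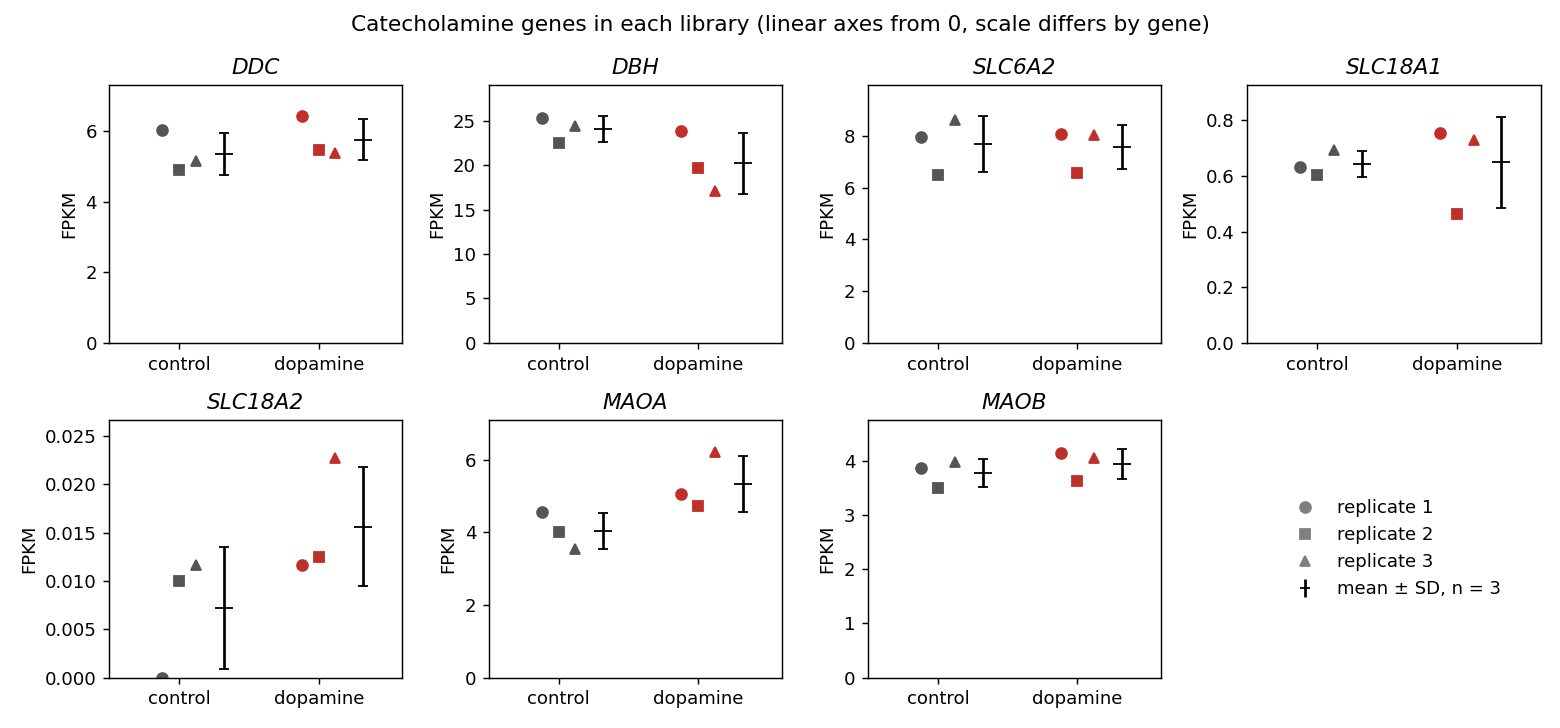
FPKM of the 7 catecholamine genes in each library, on linear axes from 0 whose scale differs by gene. Points are single libraries, with the mean and SD of 3 beside them. MAOA is the gene whose control and dopamine values do not overlap.

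By mean level the order was DBH (22.1 FPKM), SLC6A2 (7.63 FPKM), DDC (5.57 FPKM), MAOA (4.68 FPKM), MAOB (3.86 FPKM), SLC18A1 (0.645 FPKM) and SLC18A2 (0.0114 FPKM). FPKM is scaled to gene length, so levels of different genes can be set side by side. DBH lay at the 88.3rd percentile of protein-coding genes in the table, SLC6A2 at the 71.5th, DDC at the 65.6th and SLC18A1 at the 32.3rd. The ranges of DDC and MAOA overlapped, as did those of MAOA and MAOB, while every DDC value lay above every MAOB value. DDC exceeded MAOA in 5 of 6 libraries and MAOA exceeded MAOB in 5 of 6. All other neighbours in this order kept the same order in 6 of 6 libraries, without overlap between their ranges.

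Synthesis was represented by DDC and DBH. DDC (ENSG00000132437.13, hg19 chromosome 7, 50526134 to 50633154) stood at 6.04, 4.91 and 5.15 FPKM in control replicates 1, 2 and 3 and at 6.45, 5.47 and 5.38 FPKM in dopamine replicates 1, 2 and 3. Each group has its highest value in replicate 1, and the groups overlap. Group means were 5.37 ± 0.596 FPKM and 5.77 ± 0.592 FPKM (SD, n = 3 each). The fitted fold change was 1.07, with a 95% interval of 0.892 to 1.28 (limma adjusted p = 0.566). Fold changes here are on the log2(FPKM + 0.5) scale, which understates changes of low genes. Quantile normalization turned the sign of the DDC change (log2 fold change -0.032).

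DBH (ENSG00000123454.6, hg19 chromosome 9, 136501482 to 136524466) is the gene whose product separates noradrenaline-making cells from dopamine-making ones. Control libraries held 25.3, 22.5 and 24.4 FPKM, and dopamine libraries 23.9, 19.7 and 17.1 FPKM. Dopamine replicate 1 lies inside the control range and dopamine replicates 2 and 3 below it. The means were 24.1 ± 1.43 and 20.2 ± 3.42 FPKM (SD, n = 3 each), a fold change of 0.837 with a 95% interval of 0.698 to 1.01, and the difference did not pass (log2 fold change -0.26, SE 0.12, limma adjusted p = 0.161). DBH has the highest GC content of the 7 genes, 60.7% in its longest transcript, against 42.9 to 53.9% for the other 6. A correction of each library for GC content and transcript length brought its log2 fold change to -0.07 (SE 0.10, limma adjusted p = 0.691). Because control and dopamine libraries did not overlap in their GC slope, a GC bias and an effect of dopamine cannot be told apart by this correction. After median-of-ratios scaling the log2 fold change of DBH was -0.345 (95% interval -0.624 to -0.066, limma adjusted p = 0.128). In the deposited values without dopamine replicate 3 it was -0.14 (adjusted p = 0.413), and without dopamine replicate 1 it was -0.38 (adjusted p = 0.124).

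An antisense gene, DBH-AS1, lies within DBH (hg19 chromosome 9, 136519708 to 136522435). It stood at 1.17, 0.907 and 1.09 FPKM in control and at 0.699, 0.723 and 0.897 FPKM in dopamine libraries, so all 3 dopamine values were below the control values, the closest pair by a small margin. Among tested genes, 14.1% had all dopamine values below all control values. The mean of DBH-AS1, 0.914 FPKM, lay under the filter, so its values were not corrected for its GC content of 61.0%. The libraries keep strand, but no source used here gives the strand setting of the counting, so reads of DBH and DBH-AS1 may not be fully separated. DDC overlaps an antisense gene as well, AC018705.5, whose mean was 0.00867 FPKM.

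The regions before the start sites of DBH and SLC18A2 are shown because these genes lie near opposite ends of the range of levels. DBH transcription is known to be driven by the homeodomain factor PHOX2A and by cAMP signalling. Each sequence holds the 250 bases before the RefSeq start (GRCh38.p14, 5′ to 3′). Capitals mark in DBH the core of the cAMP response element (TGACG) and a homeodomain core (TAATT). In SLC18A2 they mark TGACG and the GC box, which reads GGGCGG. Each was searched on both strands, with overlapping matches merged.
DBH promoter, chr9:133636113-133636362, plus strand: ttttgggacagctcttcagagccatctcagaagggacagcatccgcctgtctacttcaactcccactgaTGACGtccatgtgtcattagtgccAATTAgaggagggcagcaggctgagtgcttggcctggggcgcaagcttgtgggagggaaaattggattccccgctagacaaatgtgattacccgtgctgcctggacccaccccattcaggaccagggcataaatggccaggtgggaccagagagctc
SLC18A2 promoter, chr10:117240864-117241113, plus strand: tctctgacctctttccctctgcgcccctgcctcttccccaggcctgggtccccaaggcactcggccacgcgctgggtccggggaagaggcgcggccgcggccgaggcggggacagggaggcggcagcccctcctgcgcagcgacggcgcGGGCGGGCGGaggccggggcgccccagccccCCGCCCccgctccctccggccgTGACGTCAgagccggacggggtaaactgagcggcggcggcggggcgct
The DBH window held 1 match to TGACG, whose first base lies 181 bases before the start, and 1 to TAATT, at 157 bases. The SLC18A2 window held the whole cAMP response element, TGACGTCA, 48 bases before its start, and 3 GC boxes, of which 2 overlap. Of 35116 RefSeq promoter windows of the same length, 21.2% held the cAMP response element core, 1.65% the whole element, 23.1% the homeodomain core and 42.6% a GC box on either strand. The antioxidant response element TGACNNNGC was searched because HMOX1, a gene known to carry it, rose with dopamine (log2 fold change 3.69, limma adjusted p = 6.06e-07). It had no match in the windows of DDC, DBH, SLC18A2, MAOA or MAOB and was present in 10.9% of all windows. The window of HMOX1 itself is not given here, and sites farther than 250 bases from a start were not searched. No conclusion is therefore drawn from this absence.

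PHOX2A, the regulator gene named above, stood at 84.6, 80.3 and 83.2 FPKM in control and at 73.6, 65.2 and 69.7 FPKM in dopamine libraries. Its groups do not overlap, and 14.1% of all tested genes likewise had all dopamine values below all control values. PHOX2A did not pass (log2 fold change -0.25, SE 0.07, limma adjusted p = 0.110), and the GC and length correction brought its log2 fold change to -0.02. PHOX2A has a GC content of 66.5%, and here too the correction cannot tell a GC bias from an effect of dopamine.

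Of the membrane transporters, SLC6A2 (ENSG00000103546.14, hg19 chromosome 16, 55689516 to 55740104) was expressed. Its values were 7.98, 6.50 and 8.62 FPKM in control and 8.09, 6.58 and 8.02 FPKM in dopamine libraries. The lowest value of each group is replicate 2, and the groups overlap almost fully. With the exon length of 5463 bases in the GENCODE annotation these are 990, 860 and 974 fragments in control and 916, 697 and 937 in dopamine, each within 0.05 of a whole number. The fold change was 0.986, with a 95% interval of 0.809 to 1.20 (limma adjusted p = 0.918) in the fit to the deposited values. Intervals of other settings reached further, to log2 fold changes of -0.425 without control replicate 2 and 0.383 without dopamine replicate 2. The sign of the fitted SLC6A2 change turned in 7 of 20 other settings.

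The vesicular transporters stood far apart. SLC18A1 (ENSG00000036565.10, hg19 chromosome 8, 20002366 to 20040717), which encodes VMAT1, stood at 0.630, 0.602 and 0.693 FPKM in control and 0.753, 0.462 and 0.730 FPKM in dopamine libraries. These values are 56, 57 and 56 fragments, and 61, 35 and 61 fragments. Dopamine replicate 2 is the low one and the groups overlap. SLC18A1 lay under the filter. With the filter at a mean of 0.3 FPKM its 95% interval ran from -0.34 to 0.34 on the log2 scale (limma adjusted p = 0.996).

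SLC18A2 (ENSG00000165646.7, hg19 chromosome 10, 119000604 to 119038941) encodes VMAT2. It was listed at 0, 0.0100 and 0.0117 FPKM in control and at 0.0117, 0.0125 and 0.0227 FPKM in dopamine libraries. These are 0, 1 and 1 fragments in control and 1, 1 and 2 in dopamine, 6 fragments in all against 326 for SLC18A1. Every library is below the limit of 3 fragments that a count of 0 allows, which is 0.0299 to 0.0373 FPKM, so no fold change is given and any difference was not detectable at this depth. Such limits cover counting error only.

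Both monoamine oxidase genes were expressed. They lie next to each other on the X chromosome and point towards each other in the annotation. MAOA (ENSG00000189221.5, hg19 chromosome X, 43515467 to 43606068) encodes the form that prefers serotonin and noradrenaline and also oxidises dopamine. It stood at 4.55, 4.02 and 3.55 FPKM in control and at 5.05, 4.72 and 6.21 FPKM in dopamine libraries. All 3 dopamine values lie above all 3 control values, although dopamine replicate 2 and control replicate 1 are close. MAOA was the single gene of the 5 tested whose groups did not overlap, and 38.4% of all tested genes had groups that did not overlap (24.4% with dopamine higher). The means were 4.04 ± 0.504 and 5.33 ± 0.779 FPKM (SD, n = 3 each), a fold change of 1.28 with a 95% interval of 1.04 to 1.58.

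The MAOA difference did not pass (log2 fold change 0.36, SE 0.13, limma adjusted p = 0.122). Without adjustment it was the one catecholamine gene under a limma p of 0.05, and 32.5% of all tested genes were (24.4% higher and 8.05% lower). The GC and length correction left its log2 fold change at 0.32 (SE 0.11, limma adjusted p = 0.133). Without control replicate 3 and dopamine replicate 3 the log2 fold change was 0.17 (adjusted p = 0.497). It came nearest to the threshold without control replicate 1 (0.44, adjusted p = 0.0532), a setting in which 18.5% of all genes passed, and with sample quality weights (0.27, adjusted p = 0.0546), in which 22.9% did.

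MAOB (ENSG00000069535.12, hg19 chromosome X, 43625858 to 43741693), whose product also oxidises dopamine, stood at 3.87, 3.49 and 3.98 FPKM in control and at 4.15, 3.63 and 4.05 FPKM in dopamine libraries. The groups overlap, with replicate 2 lowest in each. The fold change was 1.04 with a 95% interval of 0.876 to 1.23 (limma adjusted p = 0.743), and median-of-ratios scaling and quantile normalization turned its sign (log2 fold changes -0.027 and -0.11).

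The 250 bases before the starts of MAOA and MAOB are shown to compare these neighbours. Capitals mark the GC box (GGGCGG) on either strand, the core of binding sites of Sp1-type factors, which are known to act on both genes.
MAOA promoter, chrX:43656049-43656298, plus strand: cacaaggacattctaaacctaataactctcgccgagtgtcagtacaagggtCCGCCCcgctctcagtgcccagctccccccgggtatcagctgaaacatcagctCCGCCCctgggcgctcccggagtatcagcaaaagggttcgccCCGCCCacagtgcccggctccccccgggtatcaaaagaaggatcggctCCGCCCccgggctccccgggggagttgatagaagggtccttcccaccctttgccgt
MAOB promoter, chrX:43882451-43882700, minus strand: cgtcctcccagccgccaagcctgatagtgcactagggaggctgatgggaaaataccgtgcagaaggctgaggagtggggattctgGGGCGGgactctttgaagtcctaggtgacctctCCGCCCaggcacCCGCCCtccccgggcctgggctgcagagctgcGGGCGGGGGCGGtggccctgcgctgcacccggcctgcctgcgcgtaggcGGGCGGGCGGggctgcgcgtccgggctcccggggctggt
The MAOA window held 4 matches and the MAOB window 7, some overlapping. All 4 in MAOA read as CCGCCC on the printed strand. Neither window held the cAMP response element core, the homeodomain core or a TATA box (TATAAA, present in 10.7% of all windows). The windows were 63.2% and 72.0% G and C.

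**Figure D2:**
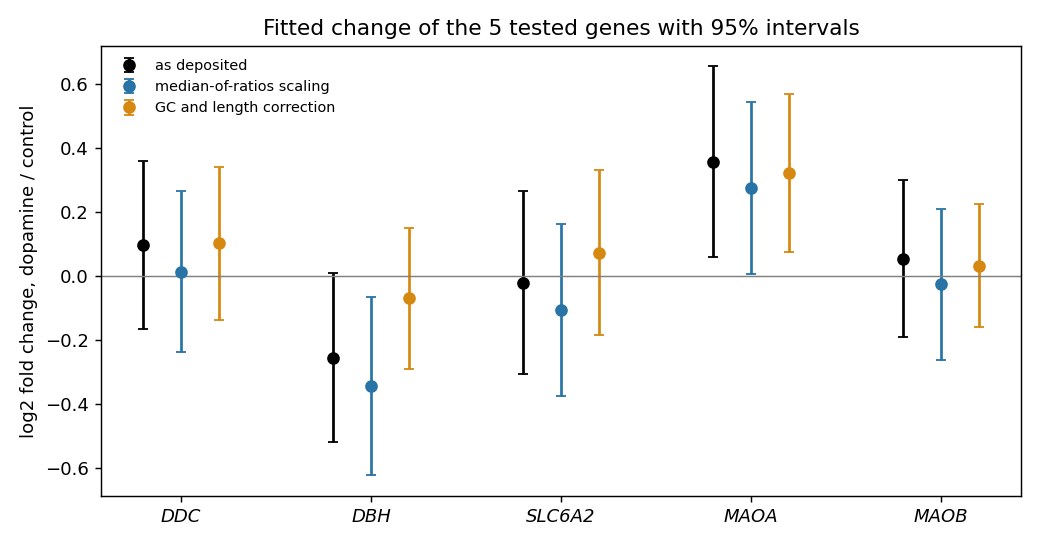
Fitted log2 fold change of dopamine over control for the 5 tested genes, with 95% intervals, from the values as deposited, after median-of-ratios scaling and with the GC and length correction. The DBH value is -0.26 as deposited, -0.345 after median-of-ratios scaling and -0.07 with the correction. MAOA stays above 0 in all 3, but its interval includes 0 in some settings not drawn, such as quantile normalization (-0.038 to 0.462).

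Ratios of 2 genes within a library do not depend on how the library was scaled. Of 3 such ratios, picked after the values were seen, MAOA over MAOB was 1.18, 1.15 and 0.891 in control and 1.22, 1.30 and 1.53 in dopamine libraries. All dopamine ratios lie above the control ratios, with means of 1.07 ± 0.158 and 1.35 ± 0.163 (SD, n = 3 each; exact permutation test, two-sided, p = 0.1, adjusted p = 0.15 over 3 ratios). MAOA and MAOB have a like GC content, 48.0 and 48.6%, but differ in length, with longest transcripts of 5438 and 2566 bases. DBH over DDC was 4.19, 4.58 and 4.74 in control and 3.70, 3.60 and 3.18 in dopamine libraries, with means of 4.50 ± 0.284 and 3.49 ± 0.277 (exact permutation test, two-sided, p = 0.1, adjusted p = 0.15). All dopamine ratios lie below the control ratios. DBH and DDC differ in GC content, 60.7 against 49.9%, and the fitted log2 changes of the pair were -0.26 and 0.10 before the GC and length correction and -0.07 and 0.10 after it. A p of 0.1 is the smallest that 3 against 3 libraries can give. MAOA and DBH have the largest fitted rise and fall of the tested catecholamine genes, so picking these pairs favoured groups that separate. The adjustment over 3 ratios does not allow for that choice, and no support for a change is drawn from these p-values. Among single tested genes, 38.4% had groups that did not overlap, and the share over all gene pairs was not computed.

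**Figure D3:**
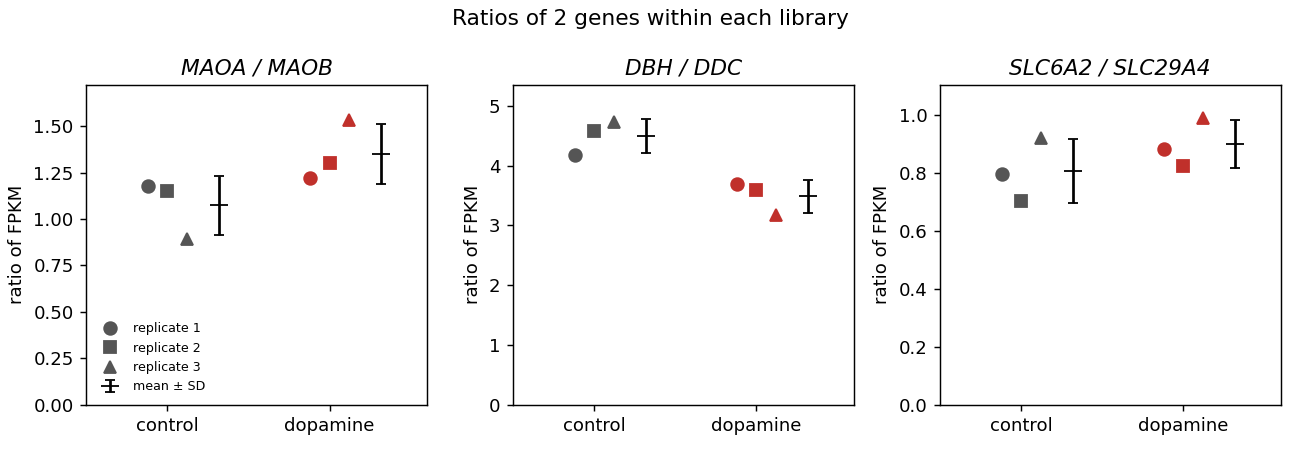
Ratio of FPKM of 2 genes within each library. Points are libraries, with mean and SD of 3. The dopamine ratios lie above the control ratios for MAOA over MAOB and below them for DBH over DDC, and overlap them for SLC6A2 over SLC29A4.

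SLC29A4 encodes the plasma membrane monoamine transporter, a low-affinity route of dopamine uptake. Its means were 9.53 ± 0.426 FPKM in control and 8.41 ± 0.651 FPKM with dopamine (SD, n = 3 each), close to the level of SLC6A2, and did not pass (limma adjusted p = 0.213). With the GC and length correction its log2 fold change went from -0.17 to 0.003. SLC6A2 and SLC29A4 differ in GC content, 53.9 against 60.0%. The ratio of SLC6A2 to SLC29A4 was 0.807 ± 0.110 in control and 0.900 ± 0.0833 in dopamine libraries and its groups overlapped (exact permutation test, two-sided, p = 0.4, adjusted p = 0.4). Of 4 low-affinity transporter genes SLC29A4 and SLC47A1 were tested, and neither lay under a limma p of 0.05 before adjustment. SLC47A1, which encodes an exporter of organic cations, stood at 1.68 ± 0.227 and 1.81 ± 0.160 FPKM.

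Tyrosine hydroxylase needs the cofactor tetrahydrobiopterin. Of 7 genes for synthesis, recycling or regulation of this cofactor 5 were tested and none passed. Before adjustment 3 lay under a limma p of 0.05, 2 higher and 1 lower, beside 32.5% of all tested genes (24.4% higher and 8.05% lower). GCH1, the gene of the rate-limiting enzyme, stood at 2.57, 1.52 and 1.98 FPKM in control and 2.85, 2.57 and 3.60 FPKM in dopamine libraries. The lowest dopamine value exceeds the highest control value by a small margin, and the log2 fold change was 0.48 (SE 0.18, limma adjusted p = 0.121). PTS, the gene of the next enzyme, stood at 3.83 ± 0.265 and 5.11 ± 0.341 FPKM (limma adjusted p = 0.110). The recycling genes PCBD1 (39.7 ± 1.32 and 34.9 ± 2.38 FPKM, adjusted p = 0.142) and QDPR (9.21 ± 0.660 and 8.46 ± 0.284 FPKM, adjusted p = 0.383) had lower means with dopamine. SPR, which completes the synthesis, stood at 21.7 ± 0.154 and 21.4 ± 2.69 FPKM. Of the 5 tested cofactor genes 4 had groups without overlap, 2 higher and 2 lower, beside 38.4% of all tested genes (24.4% higher and 14.1% lower). Corrected for GC content and length, PTS and GCH1 had log2 fold changes of 0.29 and 0.34 (limma adjusted p = 0.101 and 0.186), and PCBD1 -0.06.

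Downstream of the monoamine oxidases, aldehydes are oxidised or reduced, and amines are conjugated. Of 11 such genes 6 were tested, none passed, and 2 lay under a limma p of 0.05 before adjustment, both higher. The share over all tested genes was 32.5%, so this count is near the background. Groups did not overlap for 2 of the 6, both higher, beside 38.4% of all tested genes (24.4% higher and 14.1% lower). ALDH3A2, a fatty aldehyde dehydrogenase gene, stood at 4.57, 4.03 and 3.72 FPKM in control and 5.63, 5.45 and 7.10 FPKM in dopamine libraries, without overlap (log2 fold change 0.51, SE 0.13, limma adjusted p = 0.110). Corrected for GC content and length it was 0.44 (adjusted p = 0.0892). ADH5, an alcohol dehydrogenase gene, stood at 21.6 ± 1.18 and 25.7 ± 1.22 FPKM (adjusted p = 0.111), and its log2 fold change went from 0.25 to 0.07 with the correction. The aldose and aldehyde reductase genes AKR1B1 (56.2 ± 5.82 and 55.4 ± 7.66 FPKM) and AKR1A1 (19.4 ± 0.824 and 18.3 ± 1.88 FPKM) overlapped between groups, as did ALDH1B1 (14.3 ± 1.18 and 15.4 ± 0.997 FPKM). PNMT, whose product turns noradrenaline into adrenaline, lay under the filter at a mean of 0.124 FPKM and was added after its values were seen.

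Of 14 genes of vesicles and release 13 were tested. None passed and 6 lay under a limma p of 0.05 before adjustment, 5 higher and 1 lower, where 32.5% of all tested genes did (24.4% higher and 8.05% lower). VGF and SCG2, which encode granule proteins that give rise to secreted peptides, were the most abundant, followed by CHGA, the chromogranin A gene, at 49.2 ± 5.29 and 45.7 ± 6.93 FPKM. SCG2 stood at 419, 392 and 322 FPKM in control and at 488, 533 and 628 FPKM in dopamine libraries, without overlap (log2 fold change 0.54, SE 0.12, limma adjusted p = 0.110). Corrected for GC content and length it was 0.40 (adjusted p = 0.0849). VGF stood at 657 ± 45.7 and 625 ± 48.7 FPKM. SNAP25, a gene of the membrane fusion machinery, stood at 10.7 ± 0.615 and 14.4 ± 1.95 FPKM and its partner STX1A at 11.0 ± 1.26 and 8.45 ± 0.449 FPKM, each without overlap between groups (adjusted p = 0.110 for both). Of the 13 tested vesicle genes 4 had groups without overlap, 3 higher and 1 lower, beside 38.4% of all tested genes (24.4% higher and 14.1% lower). The GC contents of SNAP25 and STX1A are 39.6 and 60.2%. With the correction their log2 fold changes were 0.21 and -0.19 against 0.40 and -0.36 before.

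**Figure D4:**
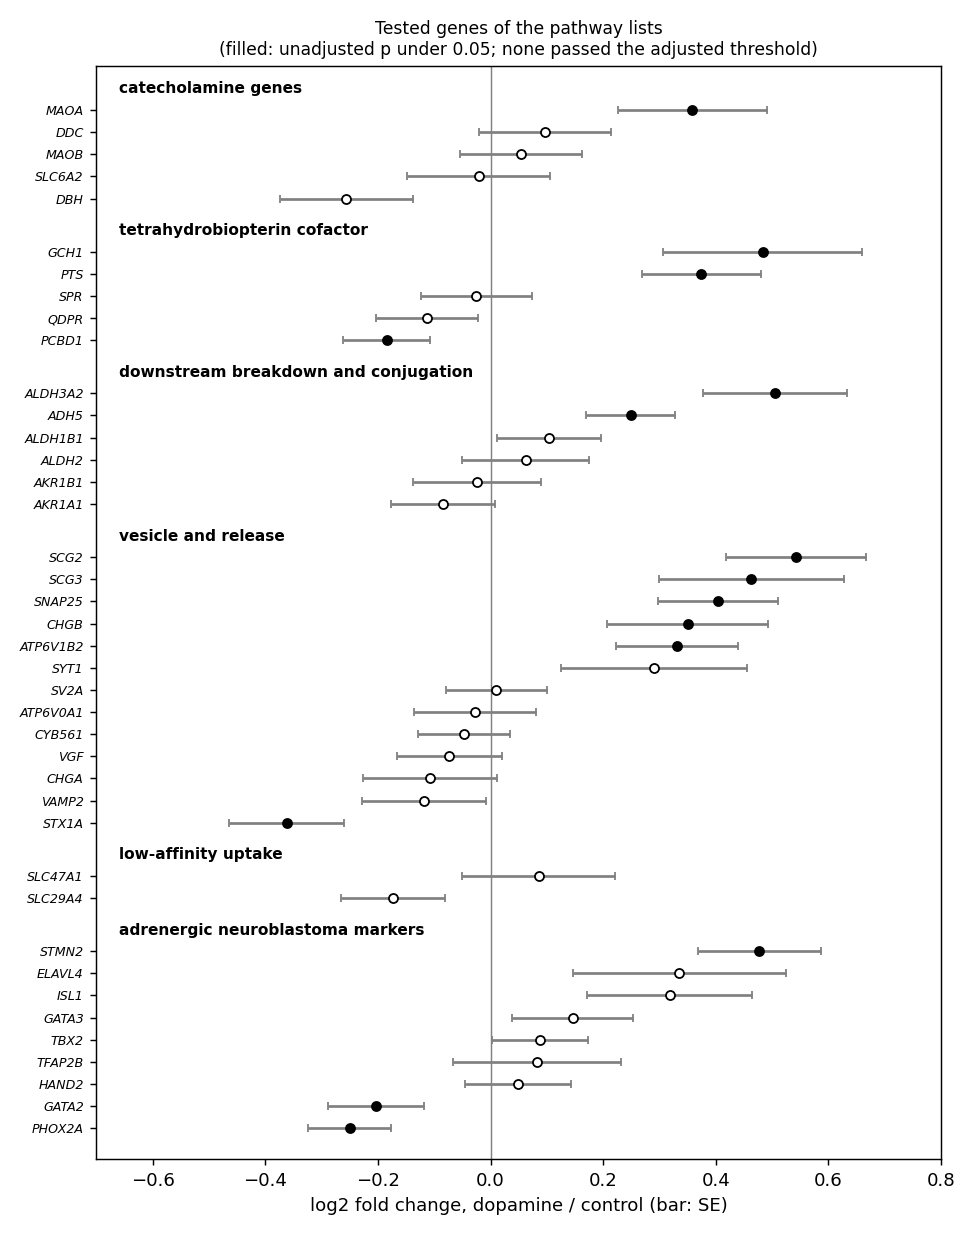
Log2 fold change of dopamine over control with its SE for every tested gene of the catecholamine list, 4 lists of related genes and the adrenergic markers. Filled points have an unadjusted p under 0.05 and no gene passed the adjusted threshold.

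The median log2 fold change was 0.05 over the 5 tested catecholamine genes, -0.03 over the cofactor genes, 0.08 over the downstream enzymes and 0.01 over the vesicle genes, beside 0.08 over all 11791 genes. With the GC and length correction, a limma p under 0.05 before adjustment was found for 1 of 5 catecholamine, 2 of 5 cofactor, 1 of 6 downstream and 5 of 13 vesicle genes, beside 24.7% of all 11579 corrected genes, and none of these genes passed.

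The genes whose pattern over the 6 libraries came nearest to each catecholamine gene were found among 10267 protein-coding genes by the root mean square difference of log2 values, each centred on its own mean. For MAOA these were HIPK1, SMN1 and CDV3, at 0.00567, 0.0262 and 0.0272 log2 units, where MAOA itself deviated by 0.229 from its mean. For DBH they were ALDOC, OLFML2B and HRH3, at 0.0217, 0.0350 and 0.0449, against 0.193 for DBH itself. WWC3, C14orf132 and COL4A1 came nearest to DDC, ST8SIA2, DACT1 and PLEKHA4 to SLC6A2, and CLEC16A, USP4 and ZNF3 to MAOB, at 0.0167 to 0.0433. SMN1 has a near-identical copy, so its values are uncertain. With 6 libraries such nearness is a description of these libraries.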

How the data were processed

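The authors deposited one table of FPKM values with gene identifiers, symbols and hg19 coordinates. Per the labels' protocols, ribosomal RNA was removed and stranded libraries were made from total RNA with random primers. The hg19 build and the tools DESeq2 1.40.2, HTSeq 0.11.2, STAR 2.7.1a and FastQC 0.11.9 are named, with no role, per the submitters' processing notes. Not given in the sources used here are the gene annotation, strand setting and FPKM formula.

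Depth came from low values of pseudogenes spanning 150 to 1500 bases, of which 92.1 to 93.8% were whole fragments within 0.03. Fragments per gene used exon lengths of GENCODE release 29. Genes averaging at least 1 FPKM were tested on log2(FPKM + 0.5) with limma 3.58.1 in R 4.3.3 (intensity trend, two-sided, Benjamini-Hochberg), checked on simulated data. GC content and length came from the longest GENCODE transcript by gene identifier (98.2% of tested genes) and entered a loess fit of span 0.5. Promoters came from RefSeq (GRCh38.p14), where 5 of the 7 genes had an entry. Some genes of the lists are not reported here. Genes and lists were chosen with earlier results of these data known. Named were all catecholamine genes, the 3 most abundant genes of each list, the 3 with the smallest p of each pathway list, and the 3 nearest patterns. Alternatives were other pseudocounts, filters, scalings and priors, quality weights, a replicate block, the GC and length correction and leaving out libraries.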

Additional observations from a re-analysis of the deposited data

How the results depend on the processing

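No catecholamine gene passed the threshold in any of the 20 alternative settings in which it was tested. MAOA kept a positive change (log2 fold change 0.17 to 0.44, adjusted p 0.0532 to 0.497) and DBH a negative one (-0.38 to -0.07, adjusted p 0.124 to 0.691). DDC turned to -0.032 after quantile normalization, and MAOB to -0.027 after median-of-ratios scaling and -0.11 after quantile normalization. SLC6A2 turned to 0.062 with sample quality weights, to 0.073 with the GC and length correction and to 0.073 with that correction and the replicate block, to 0.02 without both replicates numbered 3 (a setting added after the data were seen), and ran from -0.13 to 0.071 when single libraries were left out. MAOA and MAOB were not tested with the filter at a mean of 5 FPKM. The cause of these turns was not tested. The number of genes passing over the whole table was 12, and 6 with no filter, 23 after quantile normalization, 5 with no trend, 2706 with sample quality weights, 31 with the GC and length correction, 19 with that correction and the replicate block, 7 without both replicates numbered 3, and 3 to 2177 when single libraries were left out (2177 without control replicate 1, 3 without control replicate 2). With the replicate number as a block 3 genes passed over the whole table and no catecholamine gene did. The labels do not say what a replicate number shares. Deviations of same-numbered libraries from their group mean correlated at -0.203, 0.282 and -0.367, and not every library correlated best with its own number. With 3 libraries in each group, these correlations cannot decide whether same-numbered samples were paired. Depth limits SLC18A2, with at most 2 fragments in a library, and SLC18A1, with 35 to 61.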
